A study of Homo sapiens with 8 samples.

Results

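The ELR CXCL chemokines analysed here are CXCL1, CXCL2, CXCL3, CXCL5, CXCL6 and CXCL8, 6 of the 17131 genes in the expression table. They were chosen by name, by matching their Entrez gene identifiers (2919, 2920, 2921, 6374, 6372 and 3576 in that order), and they are represented by 7 of its 86639 RefSeq transcripts. The libraries were made from HaCaT, an established line of human keratinocytes, which are the main cell type of the epidermis. All 8 libraries came from cells exposed for 24 h to M5, a mixture of the 5 cytokines oncostatin M, TNF-α, IL-1α, IL-17A and IL-22 at 10 ng/mL each, which gives keratinocytes features of psoriasis. The treated arm was exposed to 10 nM OTS514, first alone for 12 h and then during M5 stimulation. OTS514 inhibits TOPK, the kinase encoded by PBK. There were 4 libraries titled M5_O5 and 4 titled M5, and no library of cells without M5 was analysed. The labels conflict about which arm received OTS514. By its title, M5_O5 would be M5 with the inhibitor, whereas the treatment field says that these libraries had no treatment and gives the inhibitor to those titled M5. Groups were formed by title, and every direction below is between titles. The study itself picked these chemokines for display from the same libraries, so their direction here is not independent evidence.

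ELR chemokines carry the motif Glu-Leu-Arg just before their first cysteine pair and attract neutrophils through the receptors CXCR1 and CXCR2. In psoriasis, keratinocytes stimulated by IL-17A, TNF-α and IL-1 secrete them, and neutrophils gather in the epidermis. Their genes lie close together on chromosome 4, are switched on by NF-κB and AP-1, and give short-lived mRNAs rich in AU elements. CXCL8 and CXCL6 bind both receptors, whereas CXCL1, CXCL2, CXCL3 and CXCL5 act mainly through CXCR2.

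The promoters of the 6 genes are shown because they share the letters of an NF-κB type site at almost the same distance from the gene start. Each line gives the 140 bases before the annotated start, 5′ to 3′ on the gene's own strand, from the RefSeq promoter table of GRCh38.p14, with the NF-κB type letters in capitals. PPBP, another ELR chemokine gene of the cluster, is included for comparison and holds no such letters.
CXCL1: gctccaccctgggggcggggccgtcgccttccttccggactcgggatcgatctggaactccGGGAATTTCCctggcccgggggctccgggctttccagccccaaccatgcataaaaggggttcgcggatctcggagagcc
CXCL2: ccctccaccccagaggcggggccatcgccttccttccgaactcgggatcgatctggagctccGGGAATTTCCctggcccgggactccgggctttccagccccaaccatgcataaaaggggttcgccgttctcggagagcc
CXCL3: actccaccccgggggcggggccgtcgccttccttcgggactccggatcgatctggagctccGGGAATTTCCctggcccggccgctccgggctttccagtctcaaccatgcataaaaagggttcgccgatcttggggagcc
CXCL5: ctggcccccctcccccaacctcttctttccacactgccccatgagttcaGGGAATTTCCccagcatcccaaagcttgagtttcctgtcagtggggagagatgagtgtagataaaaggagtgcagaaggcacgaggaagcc
CXCL6: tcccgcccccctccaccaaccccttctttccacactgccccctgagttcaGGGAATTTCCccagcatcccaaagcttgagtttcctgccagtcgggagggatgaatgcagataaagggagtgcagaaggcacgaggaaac
CXCL8: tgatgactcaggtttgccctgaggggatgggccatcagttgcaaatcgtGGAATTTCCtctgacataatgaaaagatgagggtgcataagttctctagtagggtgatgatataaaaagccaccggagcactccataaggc
PPBP: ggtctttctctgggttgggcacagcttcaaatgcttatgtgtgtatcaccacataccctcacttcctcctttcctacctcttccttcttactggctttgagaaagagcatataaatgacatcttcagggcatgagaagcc

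These stretches lie on chromosome 4, at chr4:73869253-73869392 on the plus strand for CXCL1, chr4:74099196-74099335 on the minus strand for CXCL2, chr4:74038690-74038829 on the minus strand for CXCL3, chr4:73998678-73998817 on the minus strand for CXCL5, chr4:73836538-73836677 on the plus strand for CXCL6, chr4:73740429-73740568 on the plus strand for CXCL8 and chr4:73988191-73988330 on the minus strand for PPBP. The letters GGAATTTCC stood at -78 to -70 in CXCL1 and CXCL3, at -77 to -69 in CXCL2, at -90 to -82 in CXCL5, at -89 to -81 in CXCL6 and at -91 to -83 in CXCL8. In all but CXCL8 a further G came before them and is also in capitals. CXCL8 was also the only member with the AP-1 type letters TGANTCA, at -137 to -131. Both strands of windows reaching from 250 bases before to 50 bases after the start were searched in 27305 promoters of the RefSeq table. Of these, 0.472% held GGAATTTCC, 0.161% held it with the further G, and 7.76% held TGANTCA. GGAATTTCC is the exact string that the members share, and no variant was searched, so its share does not test the members. The Sp1 type letters GGGCGGGG, present in 22.9% of all promoters, were found in CXCL1, CXCL3 and CXCL6, and the C/EBP type letters TTGCNNAA, present in 10.6%, were found in CXCL2. Near matches were not counted, such as ttgcaaat ahead of the NF-κB type letters of CXCL8, which differs slightly from the C/EBP type pattern. The counted matches describe the sequence and do not show binding.

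**Figure D1:**
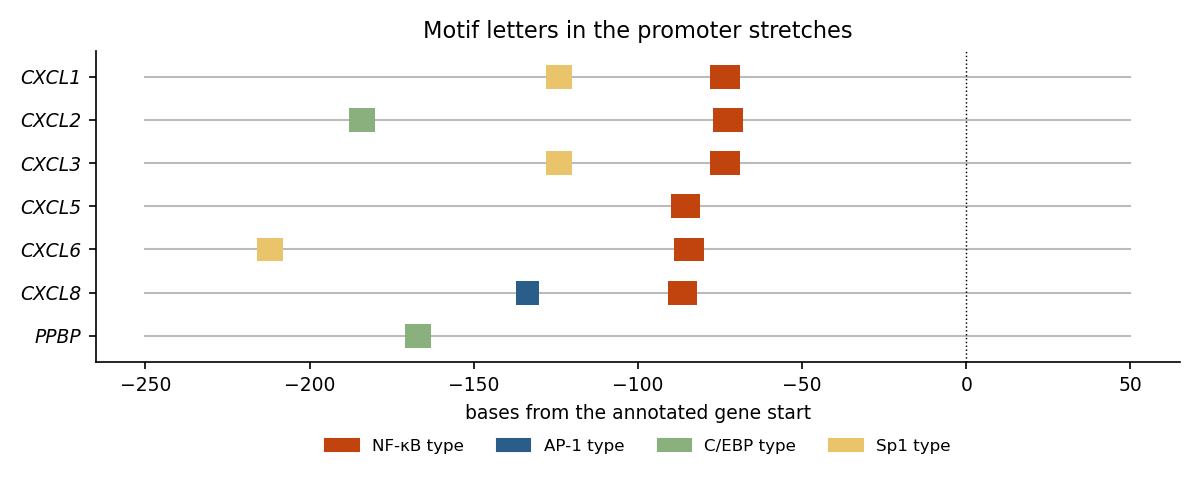
Positions of motif letters in the promoters of the 6 ELR chemokine genes and PPBP, in bases from the annotated gene start, over the 250 bases before and 50 bases after it. Coloured blocks mark NF-κB type (GGAATTTCC), AP-1 type, C/EBP type and Sp1 type letters, and the NF-κB type block lies between -91 and -69 in each of the 6 genes and is missing in PPBP.

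The promoter sequences fell into 3 kinds. Over the 140 bases, CXCL1 was 91.5% identical to CXCL2 and 90.7% identical to CXCL3, and CXCL2 and CXCL3 were 87.9% identical. CXCL5 and CXCL6 were 90.1% identical. All other pairs of members had an identity between 40.8% and 51.7%. The deposited counts of CXCL1, CXCL2, CXCL3, CXCL5 and CXCL6 were whole numbers in every library, so no fractional division of reads among these relatives is seen in the table, whereas the counts of the CXCL8 transcripts were fractional. How reads that match more than 1 gene were handled is not given in the sources used here.

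The ends of the mRNAs also share a feature. The pentamer ATTTA, the core of AU-rich elements, occurred 5 times in the 706 bases of the 3′ untranslated region of CXCL1, 10 times in the 721 bases of CXCL2, 7 times in the 673 bases of CXCL3, 11 times in the 1995 bases of CXCL5, 6 times in the 1119 bases of CXCL6 and 9 times in the 1252 bases of CXCL8 (GENCODE 29 transcripts). This is 5.36 to 13.9 per kb, against a median of 1.51 over 18152 genes. The share of genes with at least the member's density was 0.567% for CXCL2, 1.295% for CXCL3, 3.61% for CXCL8, 3.77% for CXCL1, 7.66% for CXCL5 and 8.13% for CXCL6. PPBP had 4.27 per kb, a density that 13.6% of genes reached. The longer letters TTATTTATT, present in 8.09% of genes, occurred in CXCL1, CXCL2, CXCL3 and CXCL8 but not in CXCL5, CXCL6 or PPBP. The 30-base windows with the most pentamers in the 4 densest members are shown with ATTTA in capitals.
CXCL1: cttaggagaagtcttctATTTATTTATTTA
CXCL2: aagtcttctATTTATTTATTTATTTATTTA
CXCL3: ttacgagggttctacttATTTAtgtATTTA
CXCL8: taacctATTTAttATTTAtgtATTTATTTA

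The libraries held 13708055 to 16922693 counts, the lowest being M5 replicate 1, and 12434 genes had enough counts to be tested. All 10 keratinocyte markers were tested. In M5_O5 their summed level was 18100 to 20610 CPM (counts scaled to the library's total after TMM scaling). In M5 it was 21380 to 24820 CPM. Of these markers, 5 were lower in M5_O5 by adjusted p, as were 17.6% of all genes tested. Their log2 fold changes ran from -0.40 (KRT14) to -0.25 (PERP), with TP63 at -0.29, and the groups overlapped for PERP and SFN. The leukocyte markers PTPRC and CSF3R were at 0 in every library, and the 7 of 10 leukocyte markers in the table summed to 79.8 to 98.6 CPM in M5_O5 and 94.9 to 127 CPM in M5, nearly all from CD68 and CD14. In bulk RNA, fewer cells of a type and less RNA per cell cannot be told apart. The labels do not say that replicates were separate cultures, so p-values measure the spread between these libraries, which may be technical. PBK was at 3.60, 2.93, 2.25 and 3.15 CPM in M5_O5 and 2.63, 0.588, 0.987 and 0.685 CPM in M5, so the groups overlapped through M5 replicate 1 (log2 fold change 1.32, edgeR adjusted p = 0.00738).

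All 6 chemokines were higher in the libraries titled M5_O5, by 2.32-fold for CXCL3 to 5.01-fold for CXCL2. In each gene, every M5_O5 library was above every M5 library, which held for 17.8% of all genes tested. All 6 were also called higher by the rule of an adjusted p under 0.05 and a change of at least 2-fold, which 2.87% of the tested genes met in this direction. The median log2 fold change of the members was 1.47, and that of all genes tested was 0.01. CXCL2 passed the filter on low counts through its M5_O5 libraries, so its presence among the tested genes already depended on a higher level there, whereas the other members passed in both groups. Each gene had p = 0.0286 in an exact permutation test (two-sided), and no smaller value is possible with 4 libraries against 4. The fold changes that follow are from edgeR's quasi-likelihood test with Benjamini-Hochberg adjustment over all genes tested.

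CXCL1, CXCL2 and CXCL3 encode the growth-regulated oncogene chemokines GROα, GROβ and GROγ. CXCL1 had 3309, 2111, 2329 and 2582 counts in the M5_O5 libraries 1 to 4 and 945, 775, 774 and 824 counts in the M5 libraries 1 to 4. On the CPM scale this was 151 ± 30.4 (SD, n = 4) in M5_O5 and 55.5 ± 9.01 in M5. The lowest M5_O5 library was 1.76 times the highest M5 library, and replicate 1 was the highest library of its group on either side. The log2 fold change was 1.45 (SE 0.13, 95% interval 1.17 to 1.73, adjusted p = 2.97e-06).

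CXCL2 was the least abundant member, with 37, 38, 46 and 52 counts in M5_O5 and 12, 8, 7 and 3 counts in M5. The groups did not overlap, although the M5 libraries spread widely for so few counts, with a coefficient of variation of 55.4%. Its mean was 2.54 ± 0.453 CPM in M5_O5 and 0.511 ± 0.283 CPM in M5. The log2 fold change of 2.33 (SE 0.30, 95% interval 1.68 to 2.97, adjusted p = 5.47e-05) had the widest interval of the 6.

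CXCL3 was the most even member. It had 310, 303, 338 and 337 counts in M5_O5 and 113, 130, 132 and 114 counts in M5, and its coefficient of variation was 7.21% in M5_O5 and 8.73% in M5. M5_O5 replicate 1, the highest for CXCL1, was not the highest for CXCL3. Its mean was 18.9 ± 1.36 CPM in M5_O5 and 8.13 ± 0.710 CPM in M5, a log2 fold change of 1.21 (SE 0.09, 95% interval 1.01 to 1.42, adjusted p = 9.57e-07), the smallest among the members.

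CXCL5 encodes ENA-78, an epithelium-derived neutrophil attractant. It had 2010, 1185, 1210 and 1450 counts in M5_O5 and 549, 386, 423 and 458 counts in M5. Replicate 1 again stood highest in both groups, and the groups did not overlap. The mean was 85.7 ± 22.2 CPM in M5_O5 and 30.4 ± 6.60 CPM in M5, with a log2 fold change of 1.499 (SE 0.16, 95% interval 1.15 to 1.85, adjusted p = 1.44e-05).

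CXCL6 encodes granulocyte chemotactic protein 2 and had the clearest separation. Its counts were 594, 408, 413 and 447 in M5_O5 and 113, 66, 90 and 113 in M5. The lowest M5_O5 library was 2.84 times the highest M5 library, the widest gap of the 6 members. The mean was 27.3 ± 5.02 CPM in M5_O5 and 6.38 ± 1.68 CPM in M5, a log2 fold change of 2.099 (SE 0.16, 95% interval 1.75 to 2.45, adjusted p = 9.57e-07) or 4.28-fold.

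CXCL8 encodes interleukin 8 and was the most abundant member. It had 7493, 4119, 4461 and 5568 counts in M5_O5 and 2007, 1580, 1776 and 1843 counts in M5. Here the gap between the groups was the narrowest, with the lowest M5_O5 library at 1.61 times the highest M5 library. The mean was 317 ± 88.5 CPM in M5_O5 and 120 ± 18.5 CPM in M5, a log2 fold change of 1.40 (SE 0.16, 95% interval 1.06 to 1.73, adjusted p = 1.68e-05).

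**Figure D2:**
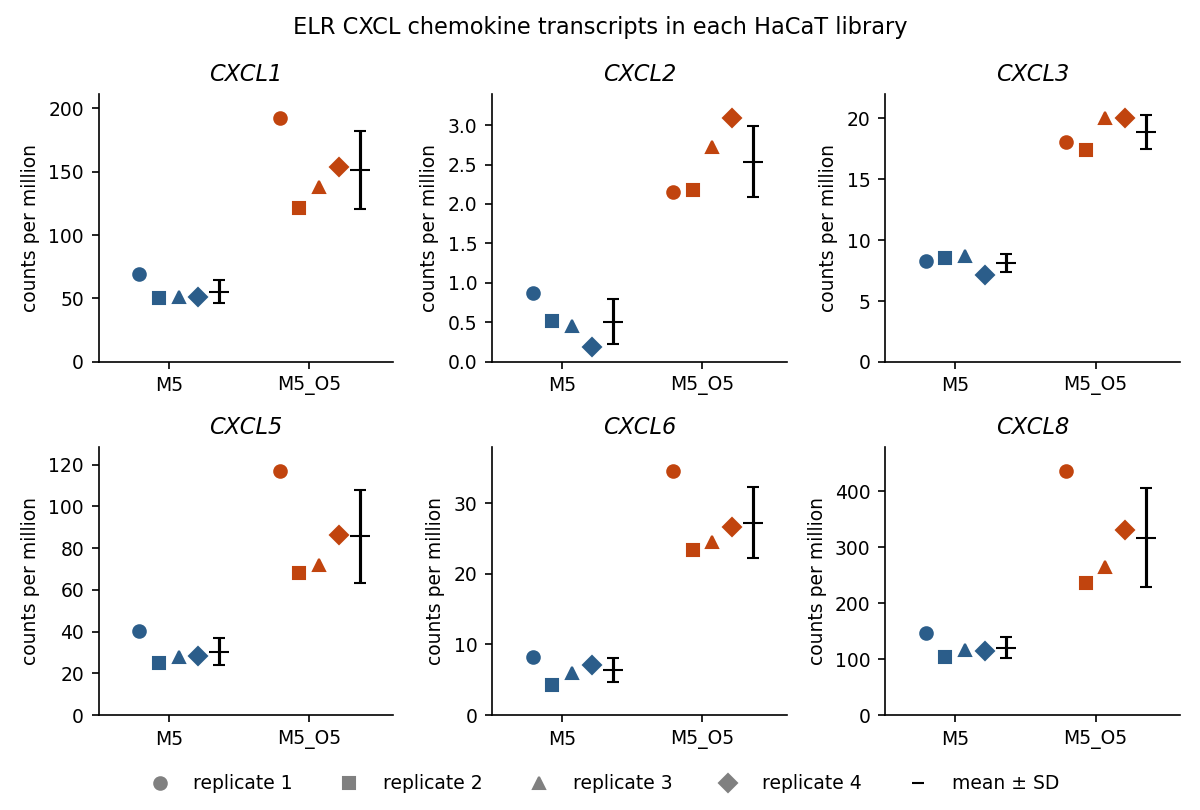
CPM of the 6 ELR chemokine genes in each library, on linear axes that start at 0 and differ between panels. Symbols mark replicate numbers within a title, and the horizontal mark with its bar gives the mean ± SD of 4 libraries. In each panel all M5_O5 libraries lie above all M5 libraries, and the gap between the lowest M5_O5 and highest M5 library runs from 1.61 times for CXCL8 to 2.84 times for CXCL6.

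The order of the libraries was not the same for all 6 genes. For CXCL1, CXCL5 and CXCL6 it was replicates 1, 4, 3 and 2, from highest to lowest, in both groups. M5_O5 replicate 1 was the highest of its group for CXCL1, CXCL5, CXCL6 and CXCL8 but the lowest for CXCL2. M5_O5 replicate 2 was the lowest of its group for 5 members, all but CXCL2. M5 replicate 1 was the highest of its group for 5 members, all but CXCL3, and M5 replicate 2 was the lowest for CXCL1, CXCL5, CXCL6 and CXCL8. Relative to its group mean on the log2 scale, M5_O5 replicate 1 stood at 0.37, 0.48, 0.35 and 0.50 for CXCL1, CXCL5, CXCL6 and CXCL8, against -0.06 for CXCL3 and -0.16 for CXCL2. Without M5_O5 replicate 1 the 6 genes were still called, with log2 fold changes of 1.31 for CXCL1, 1.31 for CXCL5 and 1.21 for CXCL8.

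Levels were compared between genes on the TPM scale, which accounts for transcript length. The summed level of the 6 genes was 1114, 627, 707 and 864 TPM in M5_O5 (mean 828 ± 215) and 374, 232, 259 and 259 TPM in M5 (mean 281 ± 63.6). In M5_O5 the order was CXCL8 (388 ± 120 TPM), CXCL1 (290 ± 66.1), CXCL5 (66.6 ± 19.8), CXCL3 (40.8 ± 3.14), CXCL6 (36.7 ± 7.95) and CXCL2 (5.21 ± 0.959). In M5 it was the same, at 136 ± 30.3, 98.2 ± 23.2, 21.8 ± 6.37, 16.2 ± 1.68, 7.96 ± 2.58 and 0.983 ± 0.608 TPM. The ranges of CXCL8 and CXCL1 overlapped in both groups, but CXCL8 was the higher of the pair in every library, by 1.22 to 1.45 times in M5_O5 and 1.31 to 1.47 times in M5. CXCL3 and CXCL6 could not be ordered in M5_O5, where CXCL3 was the higher in 3 of 4 libraries, while in M5 CXCL3 was 1.61 to 3.18 times CXCL6 in every library. CXCL5 and CXCL3 had overlapping ranges in M5, with CXCL5 the higher in 4 of 4 libraries.

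CXCL8 and CXCL1 supplied most of the difference between the groups, 46.2% and 35.1% of the difference in summed TPM. CXCL5 supplied 8.20%, CXCL6 5.26%, CXCL3 4.50% and CXCL2 0.772%. The makeup of the sum differed little for the abundant members. The share of CXCL8 was 46.5% in M5_O5 and 48.4% in M5, and that of CXCL1 was 35.3% and 34.9% (exact permutation p = 0.229 and 0.657). CXCL6 took a larger share in M5_O5, 4.48% ± 0.288 against 2.80% ± 0.484, with no overlap between the groups (exact permutation p = 0.0286). The shares of CXCL2 were 0.656% ± 0.169 and 0.336% ± 0.149, with overlap (exact permutation p = 0.0571). CXCL3 took 5.13% and 5.88%, and CXCL5 took 8.0% and 7.68% (exact permutation p = 0.343 and 0.314). These are 6 two-sided tests with unadjusted p-values, and the shares of a sum depend on each other.

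**Figure D3:**
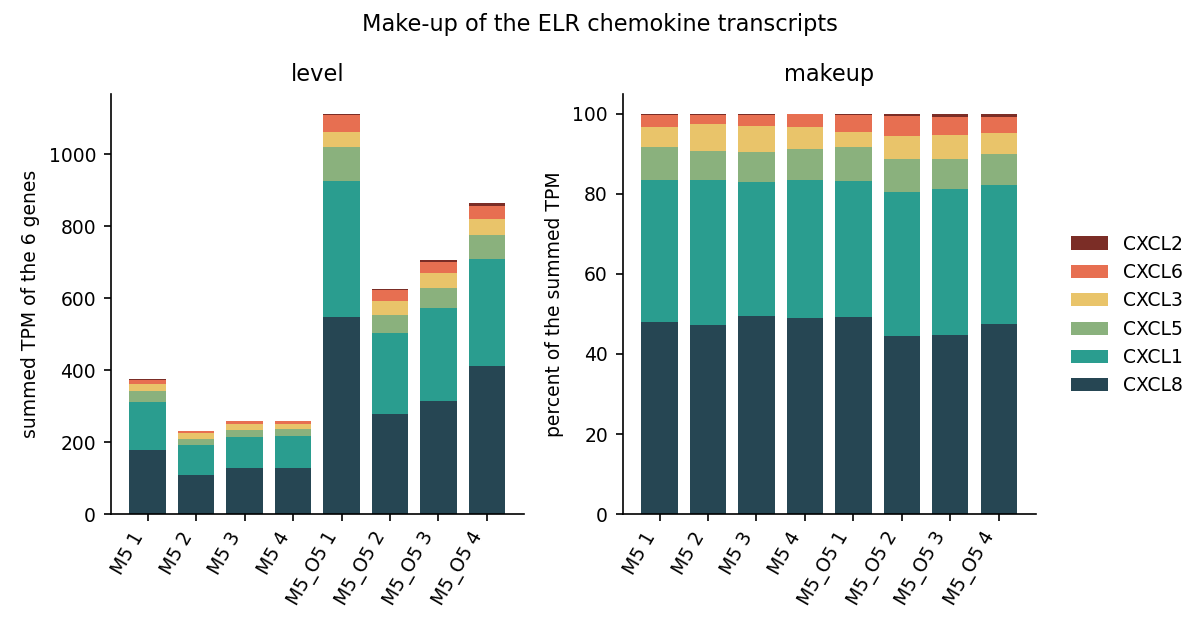
Summed TPM of the 6 ELR chemokine genes in each library (left) and the percent of that sum from each gene (right), with bars stacked in the order CXCL8, CXCL1, CXCL5, CXCL3, CXCL6 and CXCL2 from the bottom. The sum is 232 to 374 TPM in the M5 libraries and 627 to 1114 TPM in the M5_O5 libraries, while CXCL8 and CXCL1 keep the largest shares in every library.

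CXCL8 was the only member with more than 1 transcript in the table. NM_000584, the main transcript, had mean counts of 5084 in M5_O5 and 1709 in M5 (log2 fold change 1.42, SE 0.19, edgeR adjusted p = 0.0108 over 38929 transcripts). NM_001354840 had mean counts of 326 and 92.8, a log2 fold change of 1.65 (SE 0.42) that did not pass (edgeR adjusted p = 0.0926). It made up 7.89%, 4.97%, 5.005% and 5.11% of the CXCL8 counts in M5_O5 and 6.17%, 3.19%, 5.38% and 5.50% in M5. The groups overlapped (exact permutation p = 0.571), and the difference (M5_O5 minus M5) of 0.685 percentage points was -0.0294 without M5_O5 replicate 1. The single transcripts of CXCL1, CXCL3, CXCL5 and CXCL6 were called higher, by a rule that 0.432% of transcripts met, with adjusted p from 0.00313 to 0.0117. That of CXCL2 had a log2 fold change of 2.33 and did not pass at this level (edgeR adjusted p = 0.0573). The transcript of CXCL5 had an adjusted p of 0.0535 by edgeR without M5 replicate 3 and 0.0532 without M5 replicate 4, and that of CXCL2 had 0.0409 without M5 replicate 1.

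The receptors of these chemokines were at the edge of detection in the keratinocytes. CXCR1 had at most 5 counts and CXCR2 at most 10 counts in any library, neither was tested, and the decoy receptor ACKR1 was not listed. Of the 11 other CXC ligands in the list, 7 were in the table and 2 were tested. PPBP, which encodes the platelet basic protein that is cut to the ELR chemokine NAP-2, had 91, 66, 74 and 79 counts in M5_O5 and 20, 24, 17 and 21 counts in M5. The groups did not overlap, and PPBP was higher in M5_O5 by a log2 fold change of 1.73 (SE 0.17, edgeR adjusted p = 8.07e-06). CXCL16, a membrane-bound ligand of T cells without the ELR motif, was at 97.6 CPM in M5_O5 and 83.6 CPM in M5 (log2 fold change 0.22, SE 0.06, edgeR adjusted p = 0.0117). The interferon-induced CXCL9, CXCL10 and CXCL11 had at most 7 counts in any library.

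The 6 genes and PPBP are neighbours, and the 5 nearest tested genes on each side were compared in their order on the chromosome. Untested genes in the flanks were passed over, so the genes named need not be adjacent. On the side of CXCL8, RASSF6 had a log2 fold change of 0.61 (edgeR adjusted p = 0.0216), with overlapping groups, and ANKRD17, COX18, DCK and MOB1B had log2 fold changes of -0.01, 0.08, 0.30 and 0.02 that did not pass. On the side of CXCL2, MTHFD2L was at 0.26 and did not pass (edgeR adjusted p = 0.294). Beyond it lie genes for ligands of the epidermal growth factor receptor. AREG, which encodes amphiregulin, was at 12.03, 19.8, 19.7 and 17.2 CPM in M5_O5 and 4.96, 4.64, 5.99 and 6.11 CPM in M5. These groups did not overlap (log2 fold change 1.66, SE 0.16, edgeR adjusted p = 4.76e-06), and M5_O5 replicate 1, the highest library for most members, was the lowest for AREG. EPGN, which encodes epigen, had a log2 fold change of 1.07 (SE 0.20, edgeR adjusted p = 0.00106). EREG, for epiregulin, had 0.46 with overlapping groups (edgeR adjusted p = 0.0304), and BTC, for betacellulin, had 0.23 and did not pass. RASSF6 no longer passed the adjusted p when any of 4 libraries was left out (M5_O5 replicate 1, M5 replicate 2, M5 replicate 3 or M5 replicate 4). It also did not pass with limma on log2(TPM + 1) (limma adjusted p = 0.0631) or log2(TPM + 0.1) (limma adjusted p = 0.0662). EREG no longer passed when any of 5 was left out (M5_O5 replicate 1 or 3, M5 replicate 2, 3 or 4).

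**Figure D4:**
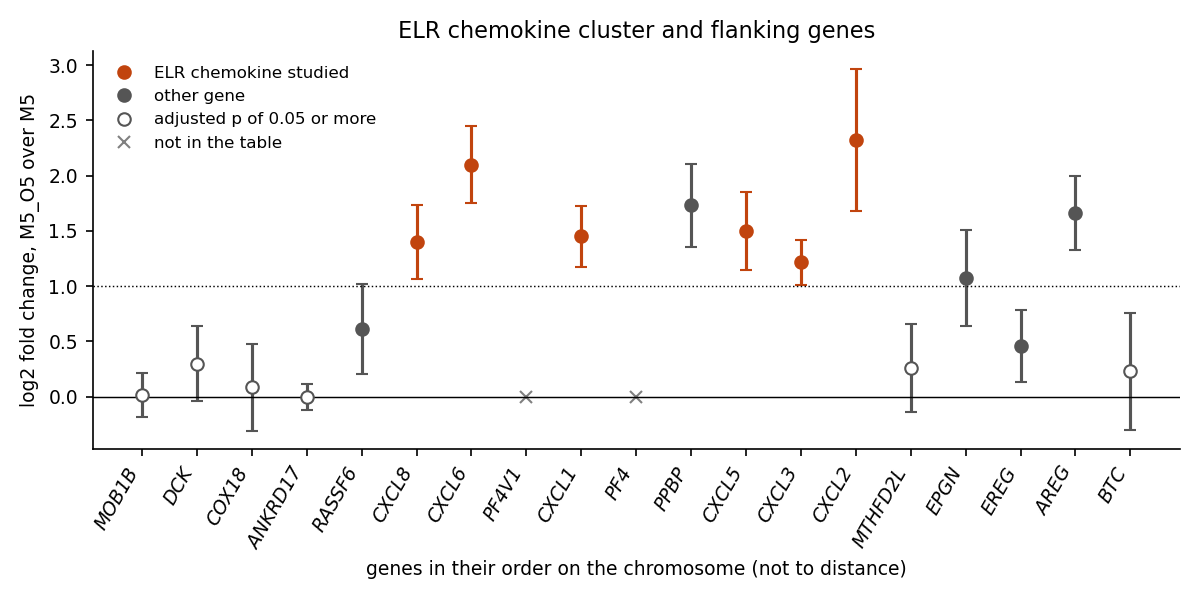
Log2 fold change (M5_O5 over M5) of the ELR chemokine cluster and the 5 nearest tested genes on each side, in their order on the chromosome, not drawn to distance, with 95% intervals. Open circles did not pass the adjusted p threshold, crosses are not in the table, and the dotted line marks a 2-fold change. The members lie between 1.21 and 2.33, PPBP at 1.73 and AREG at 1.66, while MTHFD2L between CXCL2 and EPGN lies at 0.26.

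Genes chosen for a possible action on the chemokines were described by lists. Over all genes, 19.5% were higher and 17.6% were lower in M5_O5 at an adjusted p under 0.05, and 52.5% of these were higher. This split depended on the scaling, since 79.3% were higher with library size alone and 81.1% with limma on log2(TPM + 1). Those scalings moved the median log2 fold change of all genes from 0.01 to 0.13 and 0.12, so list medians are also given relative to it.

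Of 27 listed transcription factors and inhibitors, whose action on these promoters was not tested, 1 was higher and 14 were lower, with 12 not passing. Their median log2 fold change was -0.20, which was -0.21 relative to all genes and stayed between -0.22 and -0.19 relative to them under the 8 other settings. The number of lower genes was 8 with library size alone and 6 with limma on either TPM scale. RELA, the p65 subunit of NF-κB, was at 155, 181, 181 and 167 CPM in M5_O5 and 197, 256, 238 and 235 CPM in M5. RELA was lower in every M5_O5 library than in any M5 library, which held for 15.8% of all genes tested, by a log2 fold change of -0.43 (edgeR adjusted p = 0.000656). NFKBIA, the NF-κB inhibitor and target IκBα, had -0.32, and the AP-1 genes JUN and FOSL1 had -0.40 and -0.39. CUX1, a repressor of many promoters, fell by 0.50 on the log2 scale. PARP1, a coactivator of NF-κB, was the 1 gene of the list that was higher, at 0.52. STAT3 had -0.21 (edgeR adjusted p = 0.00646), which did not pass with library size alone (-0.09, edgeR adjusted p = 0.134). Nor did STAT3 pass with limma on log2(TPM + 1) (-0.08, limma adjusted p = 0.237) or log2(TPM + 0.1) (-0.08, limma adjusted p = 0.242).

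Of 16 genes for proteins that act on the stability of such mRNAs, 8 were lower and 8 did not pass, with a median of -0.28, or -0.3 relative to all genes. With library size alone 2 were higher and 7 were lower, and with limma on either TPM scale 2 were higher and 6 were lower. ZFP36L1 and ZFP36L2, which bind AU-rich elements and promote decay, had log2 fold changes of -0.50 and -0.51. ARID5A, which stabilizes inflammatory mRNAs, had -0.38, and MAPKAPK2, the kinase that inactivates the decay factor ZFP36, had -0.39. IGF2BP2, an mRNA-binding protein, had -0.45, and the splicing factor SRSF1 had -0.40. SRSF1 did not pass with limma on log2(TPM + 1) (-0.27, limma adjusted p = 0.0857) or on log2(TPM + 0.1) (-0.28, limma adjusted p = 0.0847). The list therefore held decay factors and stabilizers that were both lower.

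Of 28 receptors and adapters of the M5 cytokines, 3 were higher, 8 were lower and 17 did not pass, and the median of -0.11 (-0.12 relative to all genes) turned to 0.0073 with library size alone and to 0.014 with limma on either TPM scale. IL1R2, the decoy receptor of IL-1, was higher by 0.81, TRAF5 by 0.78 and IL1R1, the signalling receptor of IL-1, by 0.44. The adapters TRAF6 and TRAF3 and the kinase RIPK1 had -0.34, -0.28 and -0.29, and these did not pass with limma on the TPM scales, where TRAF3 was at 0.03. The lower counts of the list were 2 with library size alone and 0 with limma on log2(TPM + 1).

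Of 16 other secreted factors that act on neutrophils, 2 were higher, 4 were lower and 10 did not pass, with a median of -0.15, or -0.16 relative to all genes. The median was -0.03 with library size alone, where 3 were higher and 1 was lower, and -0.018 with limma on either TPM scale, where 3 or 4 were higher and 1 was lower. IL6, for interleukin 6, was at 27.8, 21.7, 25.2 and 23.8 CPM in M5_O5 and 10.7, 7.38, 7.24 and 6.79 CPM in M5. Its groups did not overlap, and its log2 fold change of 1.62 (SE 0.13, edgeR adjusted p = 9.76e-07) lay within the range of the members. IL19 was higher by 0.51. S100A8, which with S100A9 forms calprotectin, had -0.40. CSF3, the neutrophil growth factor G-CSF, had -0.19, IL24 had -0.21 and CCL20, which attracts CCR6-bearing cells, had -0.22. CSF3, IL24 and CCL20 did not pass with library size alone or with limma on either TPM scale. CSF3 and IL24, whose groups overlapped, also did not pass with at least 10 counts in every library. CSF3 no longer passed without M5_O5 replicate 2, 3 or 4 or M5 replicate 2, 3 or 4. For IL24 this held without M5_O5 replicate 1, 3 or 4 or M5 replicate 2, 3 or 4. For CCL20 it held without M5_O5 replicate 2, 3 or 4 or M5 replicate 1 or 2. The lower count of this list ran from 1 (without M5_O5 replicate 3 or 4, or M5 replicate 2) to 8 (without M5 replicate 1).

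Of the listed proteases, which cut ELR chemokines or, for PLAU and PLAT, activate plasminogen, 7 were tested. Of these, 1 was higher, 5 were lower and 1 did not pass. MMP9, gelatinase B, was at 27.8, 28.95, 32.95 and 30.2 CPM in M5_O5 and 86.9, 131, 121 and 134 CPM in M5. The groups did not overlap, and the log2 fold change was -1.98 (SE 0.11, edgeR adjusted p = 7.79e-08). The collagenase MMP1 had -1.21, the macrophage elastase MMP12 -1.11, the collagenase MMP13 -0.76 and PLAU, the urokinase plasminogen activator, -0.45. MMP2, gelatinase A, was higher by 1.098. The list median was -0.76, or -0.77 relative to all genes. The 5 keratinocyte markers that passed were also lower in M5_O5, the other 5 did not pass, and their part in the lists was not tested.

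**Figure D5:**
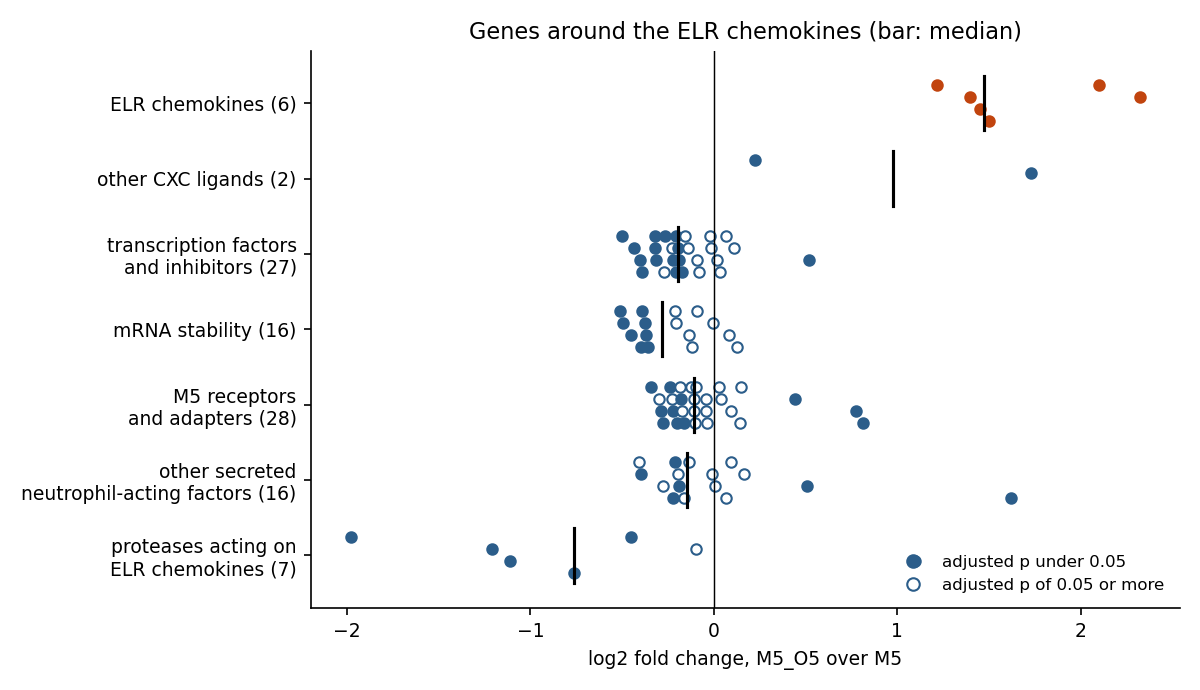
Log2 fold change (M5_O5 over M5) of each tested gene, by list, with the number tested in parentheses and the list median as a vertical bar. Filled circles passed an adjusted p of 0.05 and open circles did not. The ELR chemokines have a median of 1.47, and the lists of regulators, M5 receptors, other secreted factors and proteases have medians between -0.76 and -0.11.

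The genes whose pattern over the 8 libraries was most like the mean of the members were SLC6A15, MRPL3, TRNP1, BCAT1 and CMSS1. Their Pearson correlations with it on the log2(CPM + 1) scale lay between 0.995 and 0.996, as a description over libraries that share the difference between titles. Of 11962 genes ranked, 1043 (8.72%) had a correlation over 0.9. SLC6A15, for a neutral amino acid transporter, had a log2 fold change of 0.97, and MRPL3, for a mitochondrial ribosomal protein, 0.53. TRNP1 had a log2 fold change of 1.08, BCAT1, for the cytosolic branched-chain aminotransferase, had 2.15, and CMSS1 had 1.46.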

How the data were processed

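RNA libraries of HaCaT cells were sequenced (8 in all), and groups of 4 were taken from the library titles. The study's methods name HISAT2 2.1.0 and StringTie 2.1.5 for mapping and counting, whereas the submitters' processing notes name HISAT2 2.1.0, Bowtie2 2.2.5, RSEM 1.2.8 and the build mm10, although the identifiers are human. The authors deposited an estimated count per transcript, without normalization, and the deposited TPM and FPKM values divide it by transcript length and library size. Counts were fractional in 53.8% of all values and in 90.1% of the nonzero values, and were summed per gene and rounded. Symbols were found for 17072 of 17131 genes.

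Genes kept by filterByExpr (12434) were scaled by TMM and tested with edgeR 4.0.16 (R 4.3.3, quasi-likelihood, Benjamini-Hochberg). Calls needed at least 2-fold and an adjusted p under 0.05. Single values were compared with two-sided exact permutation tests (scipy 1.17.1). The biological coefficient of variation was 7.42%. Named were the members, PBK, STAT3, RELA, the receptors, PPBP, up to 6 genes with the largest change per list, the 5 nearest tested genes on each side of the cluster, and the 5 genes most alike. CXCL9, CXCL10, CXCL11 and the marker genes were named after their values were seen. The members and lists were chosen with earlier results of these data known. Methods were tested on simulated data. Chi-square per gene between replicates was 2.03 to 16.5, so no library was merged with another. Results were recomputed with DESeq2 1.42.0, with other filters and scalings, with limma 3.58.1 on log2(TPM + 1) and log2(TPM + 0.1), with FPKM or counts for shares, with a replicate block, and with each library left out. Protein sequences were not used here.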

Additional observations from a re-analysis of the deposited data

Results flagged for a closer look

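Of 40 sets of 4 libraries checked for a library far from the others, 3 were flagged, and chance gives about 1 in 20. CXCL1 was at 69.0 CPM in M5 replicate 1, while the other M5 libraries lay between 50.6 and 51.3 CPM. The share of NM_001354840 in CXCL8 counts was 7.89% in M5_O5 replicate 1 and 4.97% to 5.11% in the other M5_O5 libraries. IL6 was at 10.7 CPM in M5 replicate 1 and 6.79 to 7.38 CPM in the other M5 libraries. M5 replicate 1 also had the lowest total count, 13708055.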

How the results depend on the processing

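The 6 chemokine genes and their summed counts were called higher under each alternative that gave a value (16 each, and 15 for CXCL2, which the filter of at least 10 counts in every library removed), with the largest adjusted p 0.000518 (CXCL2). Log2 fold changes ran from 1.31 to 1.57 for CXCL1, 1.68 to 2.69 for CXCL2, 1.15 to 1.33 for CXCL3, 1.31 to 1.65 for CXCL5, 1.95 to 2.24 for CXCL6 and 1.21 to 1.51 for CXCL8.

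Genes called higher (357) were 144 with limma on log2(TPM + 1) and 2420 with no fold threshold. Genes called lower (41) were 25 with library size alone, 71 with no filter, 8 with limma on log2(TPM + 1), 18 on log2(TPM + 0.1), 2192 with no fold threshold and 80 with DESeq2 at unadjusted p. DESeq2 called 431, of which 376 were shared with edgeR. Leaving out single libraries gave 334 to 465 higher and 41 to 52 lower. Over the pathway lists, the 9 higher genes were 14 with limma on log2(TPM + 0.1), and the 39 lower were 23 with library size alone and 18 with limma on either TPM scale. The cause of these shifts was not tested. NM_001354840 passed with at least 10 counts in every library (log2 fold change 1.65, edgeR adjusted p = 0.0352), where fewer transcripts were tested.

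With single libraries left out, log2 fold changes ran from 2.05 to 2.71 for the CXCL2 transcript and 1.34 to 1.69 for the CXCL5 transcript, and the difference in share, in percentage points, from 1.46 to 1.85 for CXCL6, -0.10 to 0.75 for CXCL1 and -0.0294 to 1.06 for NM_001354840. Each set of 3 against 4 libraries allows no exact p below 0.0571, so the share of CXCL6 could not pass there. Genes near 0 changed sign, with MOB1B from -0.0418 to 0.0767, COX18 from -0.0239 to 0.21 and ANKRD17 from -0.0421 to 0.0152 across left-out libraries. MOB1B was at -0.00198 with DESeq2. ANKRD17 was at 0.11 with library size alone, 0.000655 with at least 10 counts in every library, 0.0859 with limma on log2(TPM + 1) and 0.0903 on log2(TPM + 0.1). TRAF3 was at 0.0253 on the first and 0.0275 on the second TPM scale. Of 49 named genes beside the members, 34 kept their direction and their side of the adjusted p threshold under each alternative.

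The main fit did not pair libraries by replicate number. Deviations of same-numbered libraries correlated at 0.278, 0.175, 0.0306 and -0.00581, and M5_O5 replicate 3 correlated best with M5 replicate 2 (0.340). For CXCL1, CXCL5 and CXCL6, however, the replicate numbers had the same order in both groups, so whether they mark pairs is not settled. With the replicate block, 359 genes were higher and 41 lower, and the log2 fold changes were 1.44 for CXCL1, 2.32 for CXCL2, 1.215 for CXCL3, 1.49 for CXCL5, 2.1 for CXCL6 and 1.37 for CXCL8. Depth limits CXCL2, with as few as 3 counts, and the receptors.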

Other observations

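The NF-κB type letters of the members' promoters were looked up in the other promoters. GGAATTTCC stood in 129 of the 27305 RefSeq promoters, and 39 genes beside the 6 members were tested. Of these 39, 6 were higher in M5_O5 by edgeR's adjusted p, 10 were lower and 23 did not pass, where 19.5% of all genes tested were higher and 17.6% were lower, with a median log2 fold change of -0.09. GGAATTTCC with a further G before it stood in 44 promoters. The 18 tested genes with it beside CXCL1, CXCL2, CXCL3, CXCL5 and CXCL6 included 3 that were higher, 8 that were lower and 7 that did not pass, with a median of -0.17. Over all genes tested the median was 0.01. A match of letters is a description and does not show a bound site.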
